A study of Mus musculus with 6 samples.

Results

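Consensus E2F1 peaks that lay at boundaries of non-coding genes, and away from every protein-coding gene boundary, are described here. Overlapping peaks (1 bp or more) of the 2 E2F1 libraries were merged, and 7006 merged intervals held a peak of each library. Of these, 289 intervals (4.13%) lay within 1000 bp of a boundary, meaning the first or last base, of a gene that RefSeq does not class as protein-coding, and more than 1000 bp from every protein-coding boundary. Another 5852 intervals lay within 1000 bp of a protein-coding boundary, and 865 lay near neither. The label "at non-coding gene boundaries" held as far as the rule reaches, but 149 of the 289 intervals (51.6%) overlapped the body of a protein-coding gene. Of the 280 on chromosomes with annotated transcript starts here, 91 (32.5%) lay within 1000 bp of an internal protein-coding transcript start, and 189 did not.

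The peaks came from chromatin immunoprecipitation followed by sequencing (ChIP-seq) in NIH/3T3, a long-established mouse fibroblast cell line of embryonic origin. One group of 2 libraries carried a doxycycline-inducible E2F1 construct (Dox-inducible E2F1), and the other group of 2 carried the matching empty vector (Dox-inducible EV). Both groups were held for 48 hours in medium with 0.25% serum and then given doxycycline for 12 hours. The treatment label gives the dose as 500 ng/ml, whereas the names of all 4 peak lists carry the number 200 for doxycycline, with no unit, so the dose is uncertain. E2F1 was thus produced from a transgene in starved cells, and nothing in the labels says that the replicates were separate cultures, so p-values measure only the spread between these libraries. The lists held 7836 and 8027 peaks in E2F1 replicates 1 and 2, against 70 and 358 peaks in EV replicates 1 and 2. Total reads were not used here. Solved local backgrounds of the listed peaks started at 1.85 and 1.86 reads in E2F1 replicates 1 and 2. In EV replicates 1 and 2 they started at 2.20 and 1.18 reads. Each value is a minimum over listed peaks, only 70 of them in EV replicate 1. It is not a genome-wide measurement and does not rank the libraries by depth.

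E2F1 is a transcription factor that binds DNA as a dimer with a DP protein and drives genes of the G1 to S transition once the retinoblastoma protein releases it. Its best known targets are protein-coding promoters, but it also acts on genes whose RNA product is itself functional, such as the primary transcript of the miR-17-92 cluster. MicroRNAs (miRNAs) repress messenger RNAs through pairing of a short seed. Long non-coding RNAs (lncRNAs) include hosts whose introns carry small nucleolar RNAs (snoRNAs), the guides of ribosomal RNA modification. Transfer RNA (tRNA) genes and several small nuclear RNA (snRNA) genes are short units with promoters of their own.

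The promoters of 6 lncRNA genes are shown because they carry intervals described below and show the range from no E2F motif match to a pair of them. Sequences are RefSeq windows of assembly GRCm38.p6, 250 bases before to 50 bases after the annotated start, written 5′ to 3′ on the strand of the gene. Capitals mark 7-base matches, on either strand, to the E2F motifs TTTCCCGC, TTTCGCGC, TTTGCCGC and TTTGGCGC without their first base. The windows are chr6:117879383-117879682 (plus strand) for Gm38882, chr5:151368425-151368724 (plus) for 1700028E10Rik, chr3:123508287-123508586 (minus) for Snhg8, chr2:119594046-119594345 (plus) for Oip5os1, chr1:155083215-155083514 (minus) for Gm9530 and chr9:88522848-88523147 (minus) for Snhg5.
Gm38882: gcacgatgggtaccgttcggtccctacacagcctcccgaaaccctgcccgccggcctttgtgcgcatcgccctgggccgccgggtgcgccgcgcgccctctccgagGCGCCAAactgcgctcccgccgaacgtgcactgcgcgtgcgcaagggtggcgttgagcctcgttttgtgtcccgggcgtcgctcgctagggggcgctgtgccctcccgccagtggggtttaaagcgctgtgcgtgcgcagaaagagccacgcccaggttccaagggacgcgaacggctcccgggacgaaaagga
1700028E10Rik: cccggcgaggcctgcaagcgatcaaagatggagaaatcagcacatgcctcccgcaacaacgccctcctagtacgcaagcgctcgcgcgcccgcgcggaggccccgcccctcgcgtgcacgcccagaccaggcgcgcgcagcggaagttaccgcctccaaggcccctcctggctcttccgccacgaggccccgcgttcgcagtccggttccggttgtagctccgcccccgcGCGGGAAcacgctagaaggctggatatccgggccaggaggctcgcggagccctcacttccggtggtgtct
Snhg8: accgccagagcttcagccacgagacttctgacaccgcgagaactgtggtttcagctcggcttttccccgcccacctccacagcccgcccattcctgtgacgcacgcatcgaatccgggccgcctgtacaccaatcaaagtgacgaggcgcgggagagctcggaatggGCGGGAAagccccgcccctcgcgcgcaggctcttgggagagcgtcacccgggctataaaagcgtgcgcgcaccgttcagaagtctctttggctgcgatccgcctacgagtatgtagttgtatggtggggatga
Oip5os1: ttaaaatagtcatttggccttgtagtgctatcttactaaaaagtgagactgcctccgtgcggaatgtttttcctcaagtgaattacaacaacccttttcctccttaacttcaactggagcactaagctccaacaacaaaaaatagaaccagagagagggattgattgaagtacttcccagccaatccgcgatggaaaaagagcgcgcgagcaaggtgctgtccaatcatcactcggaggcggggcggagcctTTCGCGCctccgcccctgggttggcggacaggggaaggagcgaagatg
Gm9530: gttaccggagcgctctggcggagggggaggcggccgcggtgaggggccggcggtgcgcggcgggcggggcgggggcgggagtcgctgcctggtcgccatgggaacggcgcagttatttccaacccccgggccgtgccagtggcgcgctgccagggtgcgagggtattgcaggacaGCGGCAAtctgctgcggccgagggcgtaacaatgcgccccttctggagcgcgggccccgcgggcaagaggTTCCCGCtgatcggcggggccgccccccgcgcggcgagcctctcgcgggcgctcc
Snhg5: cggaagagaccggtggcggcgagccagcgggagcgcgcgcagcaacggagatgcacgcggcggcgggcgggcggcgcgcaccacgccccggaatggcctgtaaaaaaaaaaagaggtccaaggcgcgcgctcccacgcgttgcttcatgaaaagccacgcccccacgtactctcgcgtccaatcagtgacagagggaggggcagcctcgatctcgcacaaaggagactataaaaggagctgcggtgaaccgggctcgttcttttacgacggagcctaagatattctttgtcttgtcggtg
In Gm38882 both library summits lay 178 bp before the start, and the motif match began 144 bp before it. In Oip5os1, where the summits lay 89 and 7 bp after the start in replicates 1 and 2, the match began 2 bp after it. In Gm9530 the summits lay 23 and 9 bp after the start, and its 2 matches began 75 and 5 bp before it. The Snhg5 window held no match, and its summits lay 234 and 224 bp before the start.

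The mature miRNAs of 5 genes with an interval are shown for the same reason, with bases 2 to 8, the seed, in capitals. Of the 17 miRNA genes with a non-coding-boundary interval, 14 were in the RefSeq sequence table. miR-132-3p and miR-212-3p share the seed AACAGUC and are encoded side by side under 1 interval, whereas the others shown have seeds of their own.
let-7i-5p: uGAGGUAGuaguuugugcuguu
miR-17-5p: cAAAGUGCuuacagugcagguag
miR-132-3p: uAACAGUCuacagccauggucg
miR-212-3p: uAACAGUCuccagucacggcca
miR-193a-3p: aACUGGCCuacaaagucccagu

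The intervals were mostly at lncRNA genes. A lncRNA boundary was within 1000 bp of 231 intervals (79.9%), and for 208 of them no other gene type was near. Pseudogenes were near 27 intervals, miRNA genes near 17, tRNA genes near 16, snoRNA genes near 9 and snRNA genes near 8. A further 7 lay at other types, among them Terc, the telomerase RNA template, and 1 lay at Rn4.5s, classed as ribosomal RNA. The counts overlap, because 34 intervals lay near more than 1 gene. In all, 334 distinct genes were named, 8 intervals shared a gene with another interval over 4 genes, and 195 intervals had the boundary inside them.

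Read the other way, by genes, the share with any consensus interval at a boundary differed widely between types. It was 5.0% over the 28097 genes that are not protein-coding, against 31.1% over the 21900 protein-coding genes. Among types, 48 of 430 tRNA genes had an interval (11.2%, 95% Wilson interval 8.52 to 14.5%), as did 1086 of 12740 lncRNA genes (8.52%). The share was 82 of 1228 for miRNA genes (6.68%), 62 of 1340 for snoRNA genes (4.63%) and 22 of 1004 for snRNA genes (2.19%). Pseudogenes were lowest among the larger types, with 79 of 10622 (0.744%). Many of these intervals were also within 1000 bp of a protein-coding boundary: only 235 of the 1086 lncRNA genes, 25 of the 48 tRNA genes and 17 of the 82 miRNA genes had an interval that met the rule. Conversely, 1027 of the 5852 protein-coding-boundary intervals (17.5%) were also near a non-coding boundary and were not counted here. Genes of 1 cluster share an interval, so the Wilson intervals cover counting error only.

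**Figure D1:**
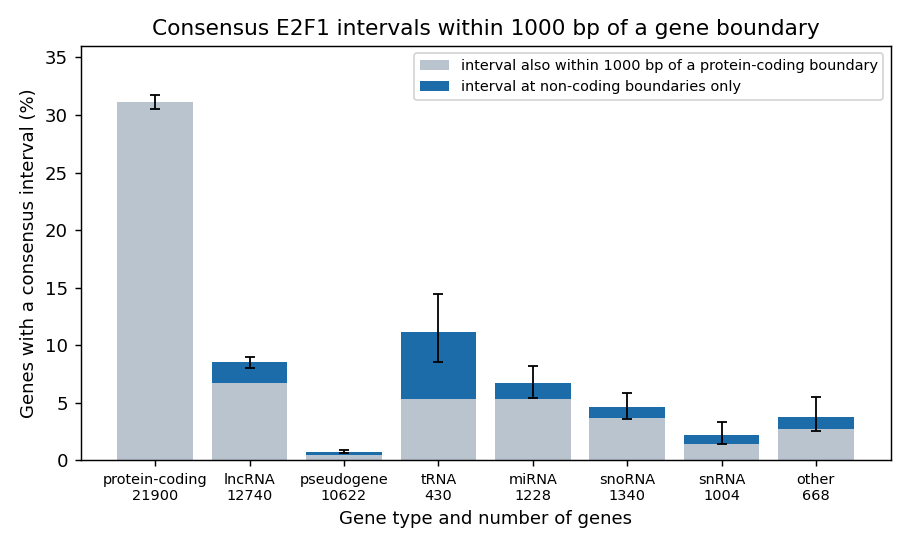
Share of genes of each RefSeq type (percent, y axis) with a consensus E2F1 interval within 1000 bp of a boundary, with the number of genes under each type on the x axis; blue is the share with an interval at non-coding boundaries only, grey the remainder, and error bars are 95% Wilson intervals of the whole bar. Protein-coding genes stand at 31.1%, tRNA genes at 11.2%, lncRNA genes at 8.52% and pseudogenes at 0.744%.

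Fold enrichment, the authors' ratio of the read pileup at the summit to the local background, ran from 1.71 through a median of 8.91 to 59.4 over the 289 intervals in replicate 1. In replicate 2 it ran from 1.90 through 12.0 to 113.5. At protein-coding boundaries the medians were 9.98 and 12.9. On a log2 scale the non-coding-boundary median was lower by a difference of -0.16 in replicate 1 and -0.11 in replicate 2, with a mean of -0.14 ± 0.04 (SD, n = 2). The exact two-sided sign-flip permutation test over the 2 libraries gave p = 0.5, the smallest it can give. The 2 medians lay close together and the same way apart in both libraries, with no test able to pass a threshold. Median solved pileups were 48 and 47 reads in replicates 1 and 2, against 51 and 51 at protein-coding boundaries.

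A fold of 10 or more in both libraries was reached by 99 intervals (34.3%), against 43.0% of all 7006 consensus intervals and 43.9% of the protein-coding-boundary intervals. Of the 100 highest consensus intervals by mean fold, 7 were at non-coding boundaries, against 4.13% of all 7006. Of the 10 highest, 1 was. Peak width showed no common direction, with medians of 1032 and 805 bp in replicates 1 and 2 against 993 and 875 bp at protein-coding boundaries (log2 differences 0.06 and -0.12, exact sign-flip permutation p = 1.0). Whole intervals spanned from 317 to 8966 bp with a median of 1075 bp, the longest at Gm31365, a lncRNA gene within Tnrc18.

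The fold was higher in replicate 2 for 202 intervals (69.9%), close to the 70.2% of all consensus intervals. The median ratio of replicate 2 to replicate 1 was 1.26, against 1.27 at protein-coding boundaries, so this offset was common to both kinds of site. Over the 289 intervals the median pileup was 48 and 47 reads in replicates 1 and 2, and the median local background 4.24 and 2.98 reads. The higher median fold in replicate 2 thus went with a lower background and not with a higher pileup. Across the 289 sites Spearman's rho between the libraries was 0.70, also 0.70 at protein-coding boundaries, as a description of sites that share libraries and not of replicates. The ratio ran from 0.504 at the pseudogene 1810014B01Rik (fold 36.1 and 18.2 in replicates 1 and 2) to 4.22 at the pseudogene Gm6475 (5.88 and 24.8). Summits of the 2 libraries lay a median of 52 bp apart, and within 100 bp of each other for 190 intervals (65.7%). At protein-coding boundaries the median gap was 56 bp, and 69.2% were within 100 bp.

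**Figure D2:**
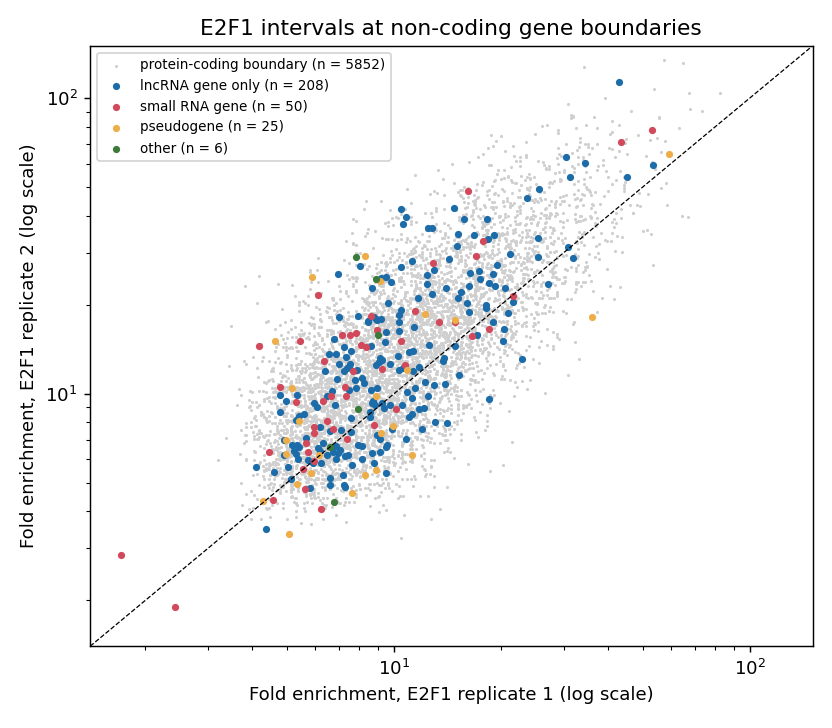
Fold enrichment of each of the 289 intervals in E2F1 replicate 1 (x axis, log scale) and replicate 2 (y axis, log scale), coloured by gene type, with a dashed line of equality. Of the intervals, 202 lie above the line, and the 2 with a fold under 3 in both libraries are at the lower left.

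Where the intervals lay relative to protein-coding genes went with small differences in level. The 91 intervals near an internal protein-coding start had median folds of 9.39 and 13.2 in replicates 1 and 2, and the 189 not near one had 8.24 and 11.9. Inside protein-coding genes the medians were 9.23 and 12.6 over 149 intervals, and outside them 8.08 and 11.2 over 140 intervals. The median distance to the nearest protein-coding boundary was 8806 bp, with 138 intervals more than 10 kb away and 13 more than 100 kb away.

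The highest interval, at the lncRNA genes Gm38883 and Gm38882 (chr6:117878763-117880384), had folds of 42.9 and 113.5 in replicates 1 and 2 on pileups of 323 and 376 reads. It ranked 9 among all consensus intervals and lay 5997 bp from Zfp239, the nearest protein-coding gene. Next by mean fold came Mir1893, a miRNA gene inside Epc1, with 53 and 77.7. The transcribed pseudogene Gm6787 (chrX:8096429-8096982) had 59.4 and 64.7. Its pileups, 196 and 214 reads, were below those at Gm38883 in both libraries. Mirlet7i followed with 43.5 and 71.0, then Gm5464 in Dpysl2 (chr14:66868705-66869397) with 53.4 and 59.1, and Gm27011 in Banp (chr8:121949796-121951612) with 45.3 and 53.9. These 6 were picked as the highest by mean fold, so their excess over the protein-coding-boundary median in both libraries follows from the choice.

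The remaining 4 of the 10 highest were all lncRNA genes. Tbrg3 and Gm20324, within Tcf20 (chr15:82898063-82900427), had folds of 34.4 and 60.3. 1700028E10Rik, in Stard13 (chr5:151368104-151369744), had 30.4 and 63.0. Its promoter, shown above, had a motif match 20 bp before the start, and the summits lay 34 and 49 bp before the start. LOC108168762 (chr2:60880326-60882466) had 31.3 and 53.9, and Gm36371 (chr7:6154761-6156676) had 25.6 and 49.1. These last 2 lay near internal transcript starts of Rbms1 and Zfp787. Of the 10 highest, 7 overlapped a protein-coding gene.

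Among 56 annotated genes of a miRNA list linked to E2F, p53 or the cell cycle, 4 had a non-coding-boundary interval (7.14%) and 52 had no interval. The list also held a few host genes, such as Mir17hg. That gene was among the 52 with no interval, as were Mir18, Mir19a, Mir20a, Mir19b-1 and Mir92-1. Over all 1228 genes classed as miRNA, 17 (1.38%) had one that met the rule and 6.68% had any. Mirlet7i, which encodes a let-7 family member whose targets include growth and cell-cycle genes, stood far above the other 3. Its interval (chr10:122984237-122986952) held the hairpin at chr10:122985640-122985724, and the summits lay 207 and 174 bp upstream of the hairpin's start. Mir17, the first miRNA of the miR-17-92 cluster, had folds of 21.6 and 21.3 on pileups of 74 and 60 reads. The Mir17 interval (chr14:115040259-115042733) ended 938 bp from the hairpin, and the summits lay 2511 and 1613 bp upstream. Mir212 and Mir132 lay under 1 weaker interval (chr11:75173129-75173736) with 4.46 and 6.38. For Mir212 the summits fell 56 bp upstream and 120 bp downstream of the hairpin start. Both libraries of Mir17 and Mirlet7i thus exceeded the protein-coding-boundary median, and both of Mir212 and Mir132 were below it.

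The other miRNA genes included Mir1191b in Nfic with folds of 18.5 and 16.5, Mir7687 in Gse1 with 14.8 and 17.4, and Mir760 with 13.4 and 17.5. Mir193a, whose interval lay outside protein-coding genes, had 7.15 and 15.8, with summits 403 and 742 bp upstream of the hairpin. Mir5620, Mir1904 and Mir378a ranged from 8.07 to 10.1 in replicate 1 and from 8.90 to 14.6 in replicate 2. Mir6976, inside Srf, had 2 intervals, with 7.67 and 12.0 at one and 5.30 and 9.37 at the other. Mir8119, Mir1949 and Mir7671 ranged from 5.56 to 6.49 and from 5.57 to 8.09. The 17 intervals at miRNA genes thus ran from the lowest fold of all 289 in replicate 1, at Mir101c, to the second highest by mean fold, and 9 of them overlapped a protein-coding gene.

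Of 21 snoRNA host genes, 7 had a non-coding-boundary interval (33.3%), 5 had one near a protein-coding boundary only, and 9 had none. Over all 12740 lncRNA genes, 235 (1.84%) had one that met the rule and 8.52% had any. Snhg5 (chr9:88522695-88523923) had folds of 16.1 and 48.6 on pileups of 45 and 138 reads, and the libraries thus differed 3.01-fold. Snhg8 (chr3:123507747-123509252) had 16.6 and 15.7, with summits 459 and 166 bp before the start and a motif match 83 bp before it. Snhg15 had 6.10 and 21.5 on pileups of 31 and 73 reads, and Snhg9 had 8.35 and 14.4. Snhg4, Snhg16 and Snhg3 were lower, from 5.68 to 5.97 in replicate 1 and from 6.35 to 7.70 in replicate 2. Gas5, a host gene that also acts on the glucocorticoid receptor, had 16.7 and 21.6, but at a protein-coding boundary.

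Apart from these hosts, 3 intervals lay at snoRNA genes. The interval at Snord93 (chr5:23849965-23851335), shared with the lncRNA genes Gm42228 and 2700038G22Rik, had 17.0 and 29.2. AI506816 with Gm50451 had 10.5 and 15, and Snord58b had 7.28 and 10.6. The fold was higher in replicate 2 at 8 of the 9 intervals with a snoRNA gene.

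Of 38 annotated genes of a list of well-known lncRNAs, 5 had a non-coding-boundary interval (13.2%), 6 had one near a protein-coding boundary only, and 27 had none, against the 1.84% and 8.52% of all lncRNA genes given above. Dleu2, the host of the miR-15a and miR-16-1 cluster, had folds of 10.5 and 42.0 on pileups of 62 and 119 reads (chr14:61680950-61683248). Pvt1, the neighbour of Myc, had 18.1 and 19.9 (chr15:62037036-62038758), at 46675 bp from the Myc boundary. Oip5os1, also known as Cyrano, had 15.4 and 22.1 (chr2:119594133-119594873). Malat1 had 14.9 and 14.6 (chr19:5802723-5804422) and Neat1, the scaffold of paraspeckles, had 9.27 and 9.33 (chr19:5845052-5846523). The 2 libraries thus differed 4.01-fold at Dleu2 and by far less at the other 4. Lockd, beside the cell-cycle inhibitor gene Cdkn1b, had 43.4 and 42.1 but lay at a protein-coding boundary. Outside the list, Chaserr, which neighbours Chd2, had 10.8 and 39.5 (chr7:73556733-73559465), and Gm9530 had 12.8 and 36.4 (chr1:155082591-155084259). These were chosen after their values were seen.

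Of 24 annotated genes of a list of structural small RNAs, 2 had a non-coding-boundary interval (8.33%), 3 had one near a protein-coding boundary only (Rpph1, Rn7s1 and Rnu12), and 19 had none. Over all 28097 genes that are not protein-coding, 334 (1.19%) had one that met the rule and 5.0% had any. Terc (chr3:96414300-96414815) had folds of 6.78 and 4.31. Rnu3b1, a copy of the U3 RNA that RefSeq classes as small nuclear, had 4.58 and 4.36, and its near-identical copy Rnu3b3 had 6.22 and 4.07, so reads may be shared between them. All were below the protein-coding-boundary median in both libraries.

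Of the other snRNA genes, LOC115488883 in Ddr1 had 17.8 and 32.8 and Gm23851 had 11.5 and 19.1. Gm23971, Gm25541, Gm23205 and Gm24950 ranged from 4.78 to 10.7 in replicate 1 and from 9.81 to 15.9 in replicate 2. Among tRNA genes the highest, with 12.8 and 27.8, was n-TRtcg5 (arginine), whose interval lay inside Polg near an internal Polg transcript start. It was followed by mean fold by n-TRtct2, another arginine tRNA gene, which shares its interval with Mir760 (13.4 and 17.5), and by n-TIaat17, an isoleucine tRNA gene, with 8.65 and 18.3. The 16 intervals at tRNA genes had median folds of 6.71 and 11.4, and 1 of them, that of n-TRtcg5, overlapped a protein-coding gene. Pseudogene medians were 8.28 and 8.09, and after Gm6787 and 1810014B01Rik the highest was Gm9282 with 8.29 and 29.1.

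**Figure D3:**
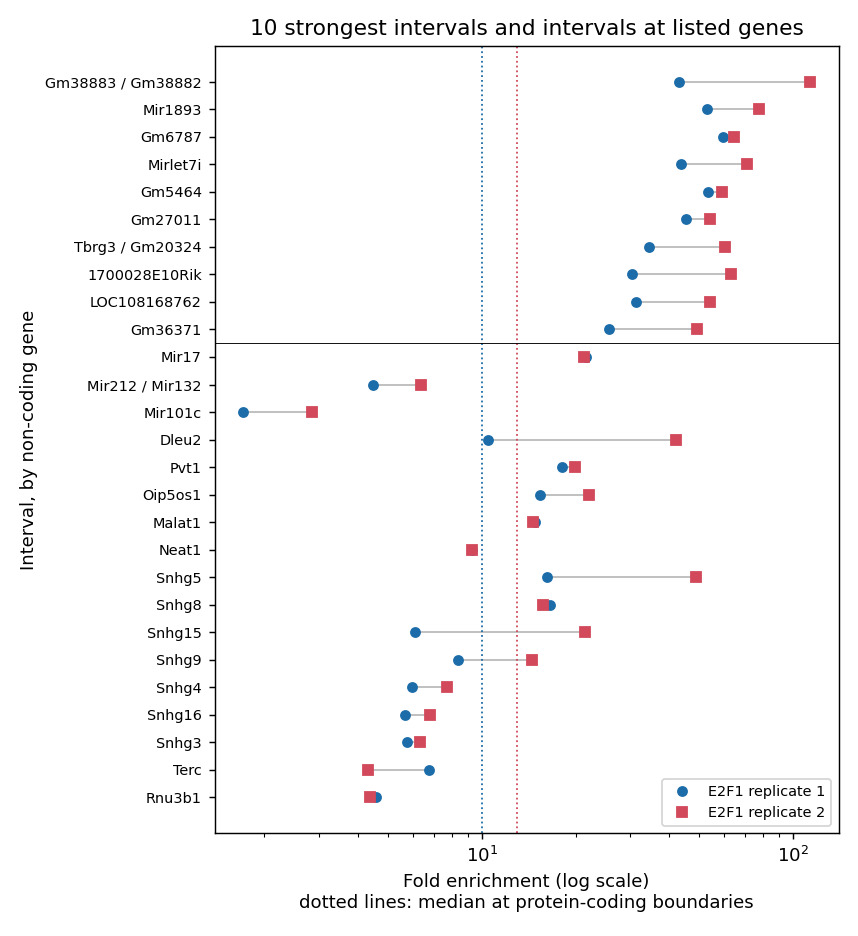
Fold enrichment (x axis, log scale) in E2F1 replicate 1 (circles) and replicate 2 (squares) at the 10 highest intervals above the black line and at intervals of listed genes and Mir101c below it, with dotted lines at the protein-coding-boundary medians of 9.98 and 12.9. Dleu2 and Snhg15 have the widest gaps between libraries among the listed genes, and Mir101c is lowest.

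Summits spread on both sides of lncRNA starts and lay mostly downstream of protein-coding starts. A summit, averaged over libraries, lay within 1000 bp of a lncRNA start for 150 of 280 intervals (53.6%). Their median position was -6.75 bp (interquartile range -234 to 206 bp, negative being upstream), and 67 (44.7%) lay within 200 bp of the start. At protein-coding-boundary intervals 4639 of 5704 (81.3%) had a summit within 1000 bp of a protein-coding start, with a median at 102.5 bp and 72.0% within 200 bp. Of the 91 intervals near an internal protein-coding start, 87 had the summit within 1000 bp of it, at a median of 102.5 bp and with 64.4% within 200 bp. For 64 of the same 91 the summit was within 1000 bp of a lncRNA start, at a median of -123 bp and with 34.4% within 200 bp. Among the 189 intervals away from protein-coding starts, 86 summits lay within 1000 bp of a lncRNA start, at a median of 34.2 bp and with 52.3% within 200 bp. No test of these placements was made, since sites of the same libraries are not replicates.

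**Figure D4:**
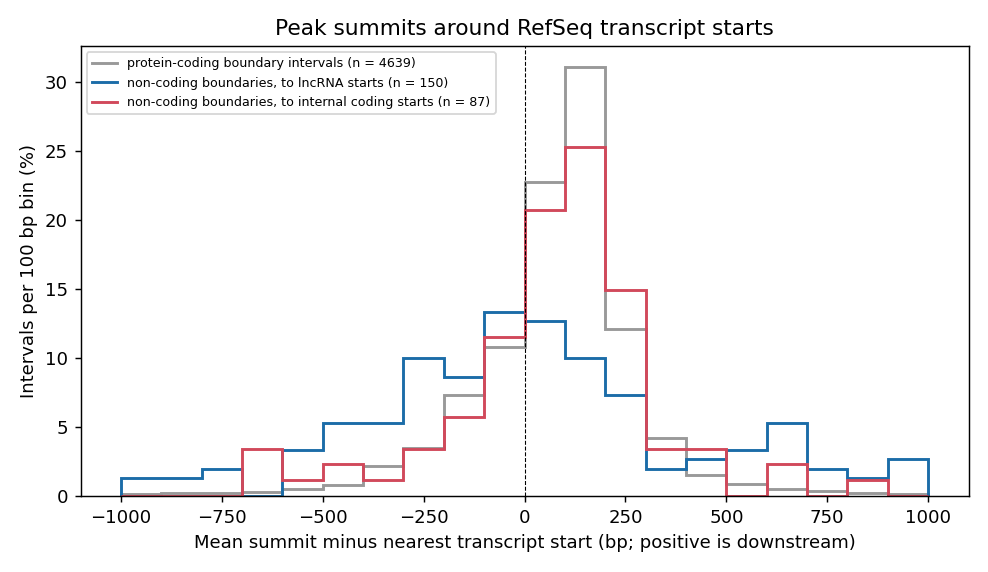
Position of the mean summit relative to the nearest RefSeq transcript start (x axis, bp, positive downstream) as the percent of intervals per 100 bp bin (y axis), for 4639 protein-coding-boundary intervals (grey), 150 non-coding-boundary intervals relative to lncRNA starts (blue) and 87 relative to internal protein-coding starts (red). Grey and red peak downstream of the start, both with a median of 102.5 bp, and blue is broader around a median of -6.75 bp.

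Motifs were counted in promoter windows of 300 bases that overlapped an interval. The 8-base E2F motifs spelled out above and their last 7 bases, which every 8-base match also holds, were searched on both strands. Of 156 lncRNA windows in non-coding-boundary intervals, from 136 intervals, 8 held an 8-base match (5.13%, 95% Wilson interval 2.62 to 9.79%) and 30 a 7-base match (19.2%). The windows came from 139 genes and some overlap each other, so the Wilson interval covers counting error only. In the 9887 lncRNA windows away from protein-coding boundaries with no interval the shares were 0.759% and 2.98%, and over all 32851 windows 2.27% and 9.57%. Protein-coding windows in protein-coding-boundary intervals stood at 6.06% and 23.4%. Counted by interval, 8 of 136 (5.88%) held an 8-base match, and these had median folds of 8.34 and 15.1 against 9.53 and 13.1 for those without.

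Base composition moved with these shares. The median GC content was 65.8% in the 156 lncRNA windows, 47.3% in lncRNA windows with no interval and 65.0% in the protein-coding windows with one. An observed-to-expected CpG ratio of 0.6 or more was found for 74.4%, 5.94% and 90.8% of them in the same order. Among windows above that ratio, the 8-base share was 5.17% in 116 lncRNA windows with an interval and 6.47% in 587 with none, and the 7-base share was 20.7% and 15.3%. With an interval, the 8-base share was thus lower and the 7-base share higher, but the Wilson intervals overlapped for both motifs. They were 2.39 to 10.8% and 4.75 to 8.76% for the 8-base motif. For the 7-base motif they were 14.3 to 28.9% and 12.6 to 18.5%. The 2 groups were not matched in composition, with a median GC content of 67.5% with an interval and 53.7% without. These shares therefore cannot show whether motif content differs at equal composition.

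Other promoter motifs were also counted, each on both strands. The GC box GGGCGG was in 70.5% of the 156 windows against 35.7% of all windows, and the E-box CACGTG in 13.5% against 7.15%. The CCAAT box was in 31.4% against 37.4%, and TTTGAA, the CHR element of cell-cycle promoters, in 5.13% against 17.9%. Protein-coding windows in protein-coding-boundary intervals held the GC box in 76.5%, the E-box in 11.4%, the CCAAT box in 37.2% and TTTGAA in 10.0%. Among lncRNA windows with a CpG ratio of 0.6 or more, the CCAAT share was 31.9% with an interval and 29.6% without. Their Wilson intervals overlapped (24.1 to 40.8% and 26.1 to 33.5%). The GC box was in 80.2% and 35.9% of these windows, the E-box in 14.7% and 9.03%, and TTTGAA in 4.31% and 17.4%. Median GC content still differed between these groups (67.5% and 53.7%), and its part in these shares was not tested. A match is only a run of letters, and none of these shares shows a bound site.

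**Figure D5:**
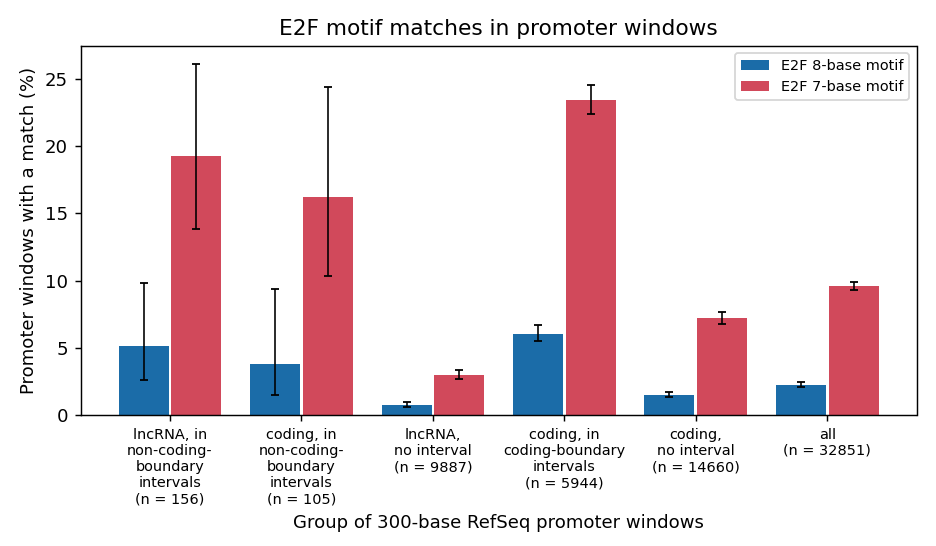
Share of 300-base RefSeq promoter windows (percent, y axis) with an 8-base (blue) or 7-base (red) E2F motif match in 6 groups of windows (x axis), with 95% Wilson intervals as error bars. The lncRNA windows in non-coding-boundary intervals stand at 5.13% and 19.2%, and lncRNA windows with no interval at 0.759% and 2.98%. Overlapping windows of the same gene are counted separately.

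In cells with the empty vector, 2 of the 289 intervals (0.692%) were overlapped by a listed peak, against 0.271% of all consensus intervals. At Mir101c (chr9:3036802-3038284) the folds were 1.71 and 2.84 in the E2F1 libraries and 2.14 in EV replicate 1, on pileups of 846, 891 and 1167 reads. The local background there was 496, 313 and 545 reads in the same order. At Rn4.5s (chr6:47655444-47655940) the folds were 2.43 and 1.90 in the E2F1 libraries and 2.42 in EV replicate 2. Both intervals thus had a listed peak without the E2F1 construct, and they are the only 2 with a fold under 3 in both E2F1 libraries. A local background of 5 times the lowest in the list or more was found at 12 and 9 of the 289 intervals in replicates 1 and 2. The share over all consensus intervals is not given here, so these counts are not compared.

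The rule on boundaries was also applied to the single peaks of each list. It took 344 of 7836 peaks (4.39%, 95% Wilson interval 3.96 to 4.87%) and 356 of 8027 peaks (4.44%, 4.01 to 4.91%) in the E2F1 libraries. In the EV libraries it took 10 of 70 peaks (14.3%, 7.95 to 24.3%) and 17 of 358 peaks (4.75%, 2.99 to 7.47%). The mean shares were 4.41 ± 0.0318% and 9.52 ± 6.74% (SD, n = 2 each), a difference of -5.10 points with an exact two-sided permutation p = 0.333, the smallest the design allows. Without EV replicate 1 the difference was -0.336 points. Folds of the EV peaks at these boundaries ran from 2.13 to 5.63 in replicate 1 and from 1.58 to 10.6 in replicate 2. The local background was at least 5 times the lowest in the list at 7 of the 10 and 14 of the 17, and 4 and 4 of them lay at snoRNA genes. All of these snoRNA peaks lay in 1 stretch of chromosome 7, from chr7:59728768 to chr7:59771732. They are thus not independent sites, and the Wilson intervals cover counting error only. The part of the local background, or of this stretch, in the share was not tested.

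Only the 3 intervals nearest each side of the protein-coding limit are described, too few to show whether fold changes there. The 3 just beyond it had folds from 6.18 to 8.11 in replicate 1 and from 6.02 to 6.38 in replicate 2. The 3 just within it had 10.2 to 16.9 and 10.1 to 27.7. Over all intervals the medians lay closer, at 8.91 and 12.0 at non-coding boundaries against 9.98 and 12.9 at protein-coding boundaries. Just beyond the protein-coding limit lay Has2os, the antisense gene of the hyaluronan synthase gene Has2, at 1023 bp from its boundary with folds of 8.11 and 6.02. Just within it, and so not counted, lay the interval at Plxnb1 at 993 bp with 12.1 and 12.0. At the non-coding limit the values nearest either side overlapped. There Gm41131 at 1000 bp (7.51 and 12.6) and Gm34301 at 981 bp (19.3 and 23.1) were the last inside. Prkag2os1 at 1015 bp (6.53 and 18.1) and Lncpint, a p53-regulated lncRNA gene, at 1040 bp (18 and 15.7) were the first outside.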

How the data were processed

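Peak lists of 2 E2F1 and 2 EV libraries were used, grouped by title. Per the submitters' processing notes, FastQC, Trimmomatic, Bowtie2, MACS2 and ChIPseeker were used with build mm10. The antibody, settings and control of the peak calls are not given in the sources used here, because the labels' extraction protocol describes RNA. Peaks were called per library. The deposited columns hold the authors' peak score, the fold enrichment (a ratio), and −log10 of the p-value and of the q-value, with the summit's distance from the peak's start. The smallest −log10 p-value was just above 10 in every list, so weaker sites have no peak. Input samples were not analysed here.

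Boundaries, strands and promoters came from RefSeq tables of GRCm38.p6 (the gene table has no strand). Both replicates had to hold a peak with 1 bp or more of overlap. Pileup and background were solved from fold, taken as pileup plus 1 over background plus 1, and p, taken as a Poisson upper tail. A whole-number pileup within 5% was found for 95.7% to 99.99% of peaks of a list. A genome was not used, so motifs were searched in promoter windows and not in whole intervals, and chromosome 18 has no windows. Libraries were compared by exact permutation tests. Regions were named as the 10 highest by mean fold, the 3 highest per gene type, those at miRNA, snoRNA, snRNA or telomerase RNA genes or at listed genes, those with an EV peak, and those nearest the limits. The members and lists were chosen with earlier results of these data known. Python 3.11.15, pandas 2.3.3, numpy 2.4.6, scipy 1.17.1 and matplotlib 3.10.9 were used, and the scripts were tested on simulated data.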

Additional observations from a re-analysis of the deposited data

How the results depend on the processing

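Of 43 alternative settings over 6 results, 36 kept the direction, the side of the threshold and, for counts, a value within 1.5 times. The number of intervals was 126 where both peaks had to reach the median score of their list, and 257 to 301 under the other settings that used both lists. Without EV replicate 1, and likewise without EV replicate 2, 1 interval was overlapped by an EV peak. The share of intervals with an E2F motif was 22.1% with 7-base motifs. The width difference from protein-coding boundaries turned to 0.0115 (log2) with a window of 500 bp, 0.0210 without pseudogenes and 0.0556 without E2F1 replicate 2, and leaving out each E2F1 replicate gave -0.120 to 0.0556. Fewer libraries or genes enter these settings by construction, and otherwise the cause was not tested. The fold difference ran from -0.198 to -0.0785 over its alternatives, of which leaving out intervals with an EV peak and those near an internal protein-coding start were chosen after seeing the data.

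Leaving out each library in turn, the difference in the share of peaks ran from -9.87 to -0.336 points, and it was -2.49 with a window of 500 bp and -3.64 without pseudogenes (both p = 1.0, exact permutation test). With a replicate block, pairing libraries by number, it was -5.10 with an exact p = 0.5. With 1 value per library, whether the numbers pair the libraries could not be checked. With 2 libraries per group no test here can reach a threshold, and sites below the lists' threshold are unseen.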
